A study of Mus musculus with 8 samples.

Results

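The probe sets described here lay level with their gene in wild type mouse cortex, and the question asked of them is which lost signal when Nova2 was knocked out. A probe set was kept where it named exactly 1 gene and that gene had 5 or more such probe sets. On each array the gene value is the median of the log2 signals of those probe sets. They were chosen by wild type signal: the wild type mean of the gene value had to be 9 or more, and the wild type mean of the probe set had to lie within 0.5 log2 of it. This left 25372 of 391597 probe sets, in 3442 of the 3472 genes at that level, and they made up 38.5% of the 65860 probe sets of those genes. A gene held a median of 6 of them and at most 57. They are called gene-level probe sets.

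Total RNA came from cortex of the mouse strain CD1, taken at postnatal day 10, either wild type (4 samples) or Nova2 knockout (Nova2 KO, 4 samples), and was hybridised to Affymetrix exon arrays, 1 array per sample. The sources used here name no allele, Cre driver or treatment. The labels do not say whether the samples of a group were separate animals, so the p-values measure the spread between these samples. The number of arrays limits the precision.

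Nova2, an RNA-binding protein of neurons, binds clusters of YCAY in precursor RNA. Bound downstream of an alternative exon it tends to favour inclusion, and bound upstream of the exon or within it, skipping. In cortex it is known for exons of synaptic, adhesion and cytoskeletal genes. An exon array reads short stretches along a gene, so an exon that is used less gives a lower signal at its own probe set while the rest of the gene keeps its level. The splicing index used below is the difference in log2 between a probe set and its gene value, array by array, and all differences are Nova2 KO minus wild type.

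The wild type arrays chose these probe sets, so their wild type level is a description and not a result. The Nova2 KO arrays took no part in the choice. At the lower limit of the window, the nearest probe sets inside were Ak3 4872621, Cnih3 5561588 and Met 4754193, with wild type indexes of -0.499973, -0.499963 and -0.49994. Outside it the nearest were Nf1 5256254 (-0.500236), Pgbd5 5084786 (-0.500198) and Nap1l4 4782458 (-0.500197). At the upper limit Slc27a4 4448336 (0.499966), Hcn2 5426960 (0.499961) and Hsph1 5592445 (0.499957) lay inside, and Trappc1 4835794 (0.500004), Fasn 5271128 (0.50005) and Marf1 5131470 (0.500136) outside. At the limit on gene level, Gclc (9.00013), Fbxo41 (9.00072) and Secisbp2l (9.00177) lay inside, and Arfgap1 (8.99977), Ermp1 (8.99922) and Cbfb (8.99914) outside. Probe sets differ in how strongly their probes respond, so lying level with the gene does not show that an exon is fully included. The probe set of Adam11 rose well above its gene in Nova2 KO, as described below, so they are named here by the rule and not as fully included exons.

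Nova2 and its paralog Nova1 held none of these probe sets, since their wild type gene values were 8.56 and 8.52. Probe set 5294108 of Nova2 read 8.87, 8.65, 8.53 and 8.66 log2 in wild type and 6.28, 7.17, 7.26 and 6.73 in Nova2 KO, a fall of 1.82 log2 (SE 0.21, limma adjusted p = 0.0324). The other Nova2 probe sets tested moved in both directions, from -0.29 log2 (4958051) to 0.70 (4414499, limma adjusted p = 0.154), and none passed the test. The gene value of Nova2, a median over all its probe sets, differed by -0.02 log2. Markers of excitatory neurons (8 of 11 measured) had wild type gene values of 7.46 to 12.2 log2 and markers of interneurons (8 of 8) of 7.42 to 11.3. In Nova2 KO, 3 of the 8 excitatory markers were lower (median difference 0.14 log2) and 2 of the 8 interneuron markers (0.04). Of astrocyte markers 3 of 5 were lower (-0.01), of striatal markers 1 of 2 (-0.09) and of cerebellar markers 1 of 2 (0.02). Oligodendrocyte markers ranged from 8.10 to 10.96 in wild type and 7.84 to 10.6 in Nova2 KO, and 8 of 9 were lower, with a median difference of -0.37 log2. Mog (-0.74), Mag (-0.66), Mobp (-0.60), Cldn11 (-0.50), Cnp (-0.37) and Mbp (-0.21) were lower, while Olig1 (-0.03), Olig2 (-0.01) and Sox10 (0.05) barely differed. Of the microglial markers 5 of 6 were lower (median -0.09), of vessel markers 4 of 5 (-0.12) and of blood markers 2 of 2 (-0.52). Of the choroid plexus markers, 2 of 5 were measured: Ttr stood at 13.2 log2 in wild type and 13.3 in Nova2 KO, and Kl at 6.67 and 6.24. The part of these cell types in the results was not tested. Array medians ran from 7.02 to 7.37 log2 and no gene-level probe set was at the floor of 4 log2 on any array. The index deviated most widely on Nova2 KO 3, with a median absolute deviation of 0.111 against 0.0716 to 0.0933 on the other 7 arrays.

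Loss of signal relative to the gene was rare among the gene-level probe sets. The probe sets past the threshold in the falling direction were those of Tln2, Sptan1 and Aplp2. Of the 25372, 3 fell at a limma adjusted p under 0.05 (0.0118%), against 0.00813% of the 196824 probe sets tested, and 1 rose (0.00394%), against 0.00508%. In either direction that is 4 (0.0158%), against 0.0132%. All 25372 passed the filter on low signal. The median index difference was 0, and the middle 95% ran from -0.26 to 0.27 log2 against -0.42 to 0.43 over all probe sets tested. The rule itself bears on this spread. Of the 25372, 5726 equalled the gene value on 1 array or more, and 330 on all wild type arrays, where their index is 0. They were also brighter, with a median wild type signal of 9.77 log2 against 8.50. The shares of all tested given here are thus those of unlike probe sets. By size alone, 4 differed by -1 log2 or less (0.0158%, against 0.0533%) and 2 by 1 or more (0.00788%, against 0.0742%). The 4 Nova2 KO arrays lay below the 4 wild type arrays at 560 probe sets (2.21%, against 2.11% of all tested) and above them at 634 (2.5%, against 2.03%), shares close to their backgrounds. By signal, without division by the gene, they lay below at 802 (3.16%, against 2.32%) and above at 1408 (5.55%, against 3.77%), and probe sets of 1 gene move together in that count. At an unadjusted p under 0.05, 444 fell (1.75%, against 3.31%) and 499 rose (1.97%, against 3.32%).

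**Figure D1:**
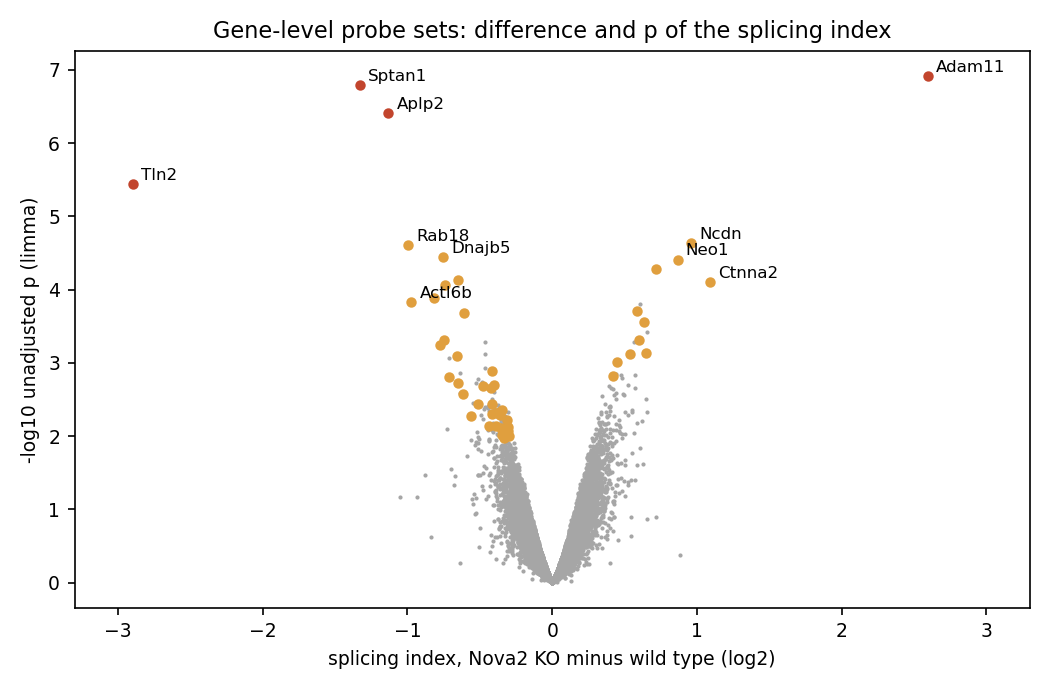
Each point is 1 gene-level probe set, with the difference of its splicing index (Nova2 KO minus wild type, log2) on the horizontal axis and -log10 of the unadjusted limma p on the vertical axis. Red points passed the threshold, orange points are the other genes selected by rank, and grey points are the rest. Tln2 (-2.90), Sptan1 (-1.33), Aplp2 (-1.13) and Adam11 (2.60) stand apart from a cloud whose middle 95% lies between -0.26 and 0.27.

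Sptan1 encodes alpha-II spectrin, a rod of the membrane skeleton that binds actin and ankyrin, and it is a gene with a known Nova-dependent exon. Its probe set 5084491 read 11.42, 11.60, 11.52 and 11.55 log2 in wild type and 10.26, 10.44, 10.07 and 10.13 in Nova2 KO. All 4 Nova2 KO arrays were lower than every wild type array. Relative to the gene, the index was -0.20, -0.15, -0.23 and -0.15 in wild type and -1.56, -1.35, -1.52 and -1.63 in Nova2 KO. The difference of -1.33 log2 (SE 0.096, limma adjusted p = 0.00391) left 39.7% of the wild type signal relative to the gene. The other 60 probe sets of Sptan1 tested differed by -0.24 to 0.27, and 33 of the 61 were at gene level, so the fall stood alone in the gene. The gene value differed by 0.03 log2 (adjusted p = 0.939). The call held without any single array and was lost without both arrays numbered 4 (adjusted p = 0.0849).

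Aplp2, the amyloid precursor-like protein 2, is a membrane protein of the amyloid precursor family that is cut by the same secretases, and it too has a known Nova-dependent exon. Probe set 5477899 read 11.22, 11.24, 11.45 and 11.10 log2 in wild type and 10.01, 9.92, 10.03 and 9.96 in Nova2 KO, with no overlap. On each wild type array it was itself the median of the gene, so its wild type index was 0 on all 4 arrays. In Nova2 KO the index was -1.06, -1.06, -1.26 and -1.15. The difference of -1.13 log2 (SE 0.091, limma adjusted p = 0.00756) left 45.6%. The wild type arrays added no spread to its error. That error rests on the spread in Nova2 KO and on the variance that limma borrows from the other probe sets. With the gene value taken without this probe set the difference was -1.26 (adjusted p = 0.00627), and its signal fell by 1.27 log2 (SE 0.12, adjusted p = 0.0140). The other 31 probe sets tested ran from -0.23 to 0.33, and the gene value differed by -0.14. The call was lost without wild type 1 (adjusted p = 0.0566), wild type 3 (0.0538) or both arrays numbered 4 (0.134).

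Tln2 encodes talin 2, which links integrins to actin, and its probe set lost the most. Probe set 5413834 read 9.39, 9.17, 9.19 and 8.996 log2 in wild type and 6.42, 5.24, 5.70 and 6.54 in Nova2 KO. The index was 0.24, 0.01, -0.05 and -0.14 in wild type and -2.51, -3.75, -3.10 and -2.15 in Nova2 KO, with a wider spread in Nova2 KO (SD 0.70) than in wild type (SD 0.16). The difference of -2.90 log2 (SE 0.30, limma adjusted p = 0.0313) left 13.4% of the signal relative to the gene. The size of what was left is uncertain, since Nova2 KO 2 and 3 read below the filter value of 5.86 log2. With the offset of 16 taken off and 1 added, the difference was -3.29 (adjusted p = 0.116). The other 75 tested ran from -0.34 to 0.56, and none fell by 0.5 or more. The gene value differed by -0.31 (adjusted p = 0.292). Its adjusted p was 0.194, 0.146, 0.146 and 0.0951 without wild type 1, 2, 3 and 4, 0.109 without Nova2 KO 1 and 0.196 without Nova2 KO 3, so the call was lost in these 6 cases. It held without Nova2 KO 2 (0.0235) and without Nova2 KO 4 (0.0290).

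**Figure D2:**
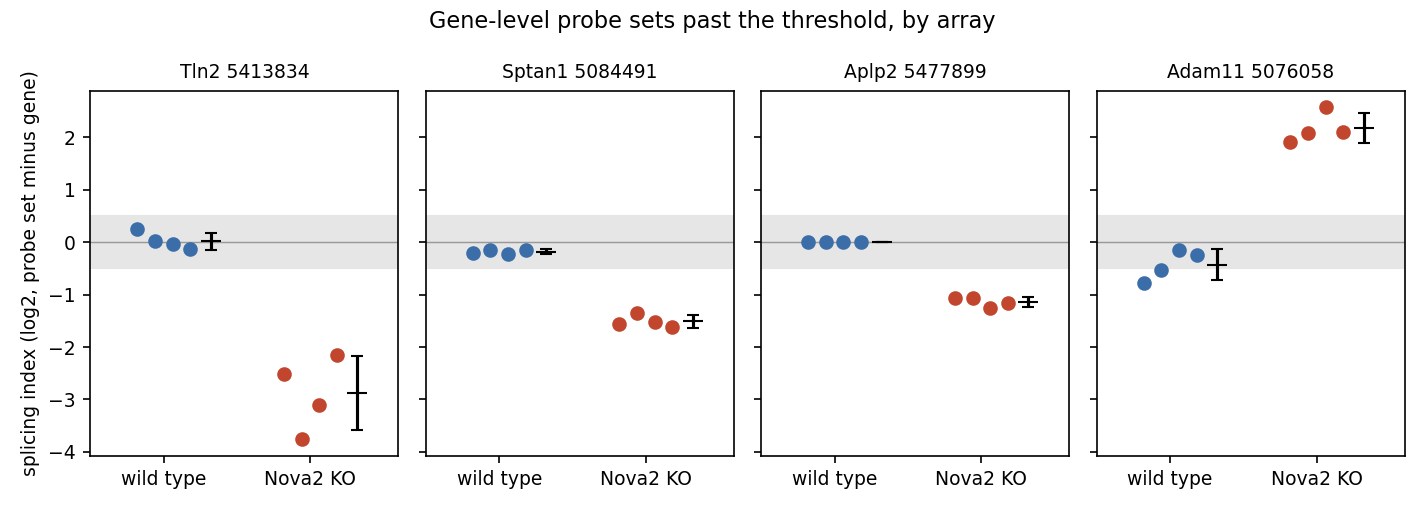
The splicing index (log2) on each of the 4 wild type and 4 Nova2 KO arrays is plotted for the 4 gene-level probe sets past the threshold, with the group mean ± SD beside the points and the window of 0.5 log2 around the gene value shaded. In Sptan1, Aplp2 and Tln2 all Nova2 KO arrays lie below all wild type arrays, and in Adam11 they lie between 1.91 and 2.57, above wild type arrays at -0.79 to -0.15.

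In the opposite direction, probe set 5076058 of Adam11 rose past the threshold. Adam11 is a catalytically inactive member of the ADAM family of membrane proteins and serves in adhesion and synaptic organisation. Its signal was 8.41, 8.72, 9.23 and 8.67 log2 in wild type and 11.34, 11.58, 11.99 and 11.03 in Nova2 KO. The index was -0.79, -0.54, -0.15 and -0.24 in wild type, so that on wild type 1 and 2 it lay outside the window that its mean passed. In Nova2 KO it was 1.91, 2.09, 2.57 and 2.10, a rise of 2.60 log2 (SE 0.18, limma adjusted p = 0.00391) or 6.05-fold relative to the gene. The other 27 Adam11 probe sets tested differed by -0.44 to 0.38. The call was lost without both arrays numbered 4 (adjusted p = 0.0849). A signal level with the gene in wild type was thus no upper limit at this probe set.

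**Figure D3:**
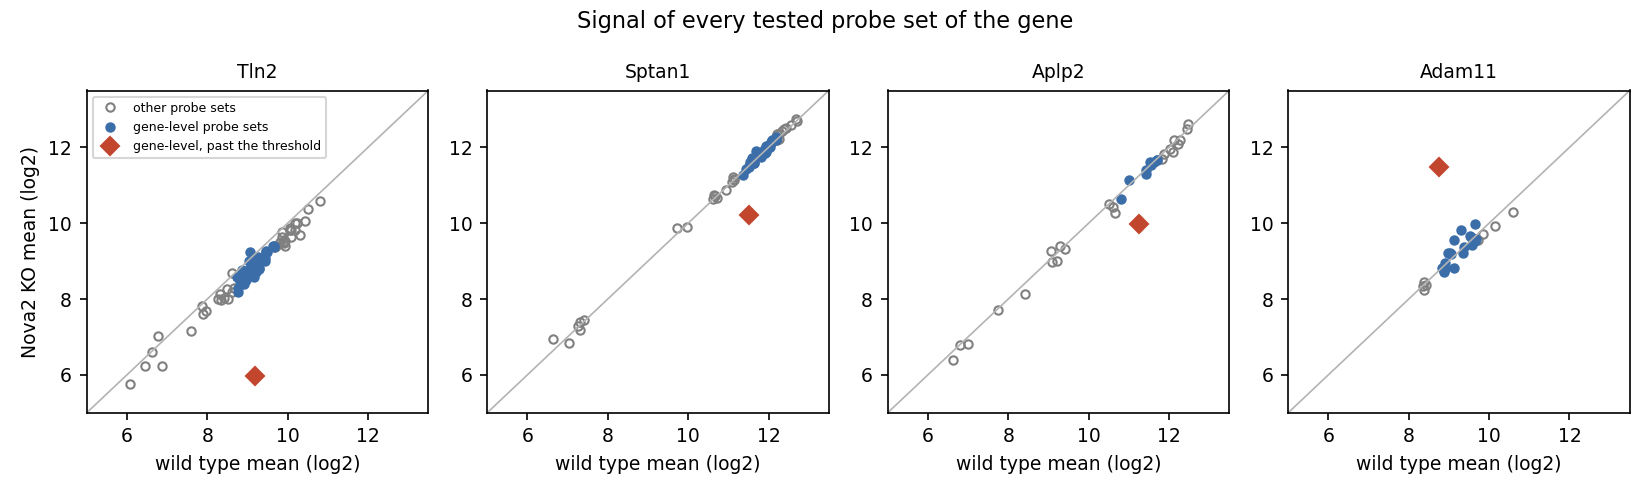
All tested probe sets of Sptan1, Aplp2, Tln2 and Adam11 are plotted by their mean log2 signal in wild type (horizontal axis) and in Nova2 KO (vertical axis), with the line of equal signal. In each gene 1 probe set leaves the line, marked as a diamond, while the index of the others differs between groups by -0.44 to 0.56 log2.

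Plekhb1 and Ctnna2 also moved by 1 log2 or more but did not pass the test. Plekhb1 encodes a membrane protein with a pleckstrin homology domain. The index of its probe set 5563079 was -0.04, -1.59, 0.02 and -0.18 in wild type and -0.08, -1.64, -1.95 and -2.32 in Nova2 KO. The groups overlap, and the difference of -1.05 (SE 0.51, limma adjusted p = 0.767) is no larger than the spread between arrays. Plekhb1 falls outside the rule for naming genes and was named after its values were seen. Ctnna2, alpha-N-catenin, ties cadherins to actin. The index of its probe set 5002387 was 0.11, 0.00, 0.15 and 0.16 in wild type and 1.06, 0.86, 1.67 and 1.19 in Nova2 KO, a difference of 1.09 (SE 0.16, adjusted p = 0.176), with no overlap.

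Below the threshold, 37 further genes were selected in the falling direction, by rising p among probe sets whose index and signal were both lower on all Nova2 KO arrays. Their index differences ran from -0.99 to -0.30 and their adjusted p from 0.108 to 0.667, so none is a call. The absence of overlap chose them and is no support for them. Part of the 37 are described below, grouped by kind and not by rank. Bdh1 (4443580, -0.61, SE 0.10, limma adjusted p = 0.283) is not described there, though it ranks above some that are. In 29 of the 40 falling genes, the 3 called included, no other probe set of the gene differed by -0.5 or less, and the gene value fell past its own threshold in none of the 40.

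Among regulators of small GTPases and G proteins, probe set 5501592 of Rab18, itself a small GTPase of lipid droplets and endoplasmic reticulum, came closest to the threshold. Its index was -0.49, -0.24, -0.42 and -0.70 in wild type and -1.29, -1.43, -1.44 and -1.67 in Nova2 KO (difference -0.99, SE 0.13, adjusted p = 0.108). It did not stand alone in the gene, since 5 of 17 Rab18 probe sets differed by -0.99 to -0.54, all without overlap, and the other 12 by -0.24 to 0.35. Rap1gds1 (-0.37), an exchange factor for small GTPases, Agap2 (-0.33), an Arf GTPase-activating protein, and Rgs9 (-0.78), which speeds the GTPase of G proteins, were also named, and none passed the test.

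Of chaperones and chromatin proteins, Dnajb5, a member of the Hsp40 family, and Actl6b, the neuronal actin-like subunit of the BAF remodelling complex, did not pass the test by index. The Dnajb5 probe set 5335688 read 8.94, 9.06, 9.07 and 8.72 log2 in wild type and 7.80, 8.05, 7.91 and 7.70 in Nova2 KO. Its index difference was -0.75 (SE 0.10, adjusted p = 0.119), while its signal fell by 1.08 log2 (SE 0.13, adjusted p = 0.0382) and the gene value differed by -0.33 (adjusted p = 0.388). The index of Actl6b 5229092 was -0.30, 0.42, 0.03 and -0.28 in wild type and -1.07, -0.97, -0.996 and -0.99 in Nova2 KO (difference -0.97, SE 0.16, adjusted p = 0.251). In Actl6b 3 of 18 probe sets differed by -0.5 or less. Smarcc1 (-0.62), another BAF subunit, had an adjusted p of 0.553.

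Among cytoskeletal and adhesion genes, none of the other named probe sets passed the test. Epb41l2, a relative of the red cell protein Epb41 that ties spectrin to the membrane, had an index of 0.10, 0.44, 0.43 and 0.26 in wild type and -0.43, -0.60, -0.28 and -0.73 in Nova2 KO at probe set 4658530 (difference -0.82, SE 0.13, adjusted p = 0.241). Of its 30 probe sets, 5 differed by -0.5 or less. Beside 4658530, only 4917510 (-0.67) of these did not overlap. The others, 4387500 (-0.52, SE 0.33), 5003118 (-0.56, SE 0.23) and 5120588 (-0.62, SE 0.36), overlapped. Epb41l3, a paralog of Epb41l2, had -0.43 (adjusted p = 0.549). Spire1, an actin nucleator, had -0.71, Map2, a dendritic microtubule-associated protein, -0.42, and Map7d2, another microtubule-associated protein, -0.42. Clstn1, a calsyntenin of the axonal and postsynaptic membrane, had -0.74, Epha5, an ephrin receptor, -0.66, and Adam22, a receptor for the secreted protein Lgi1, -0.56. The adjusted p of these 6 lay between 0.391 and 0.608.

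Genes of other kinds stood close to the same rank. Hecw1, a ubiquitin ligase, had an index of 0.30, 0.62, 0.28 and 0.48 in wild type and -0.22, -0.31, -0.47 and -0.29 in Nova2 KO at probe set 5277374 (difference -0.74, SE 0.11, adjusted p = 0.184). Snhg14 is a long non-coding RNA that hosts small nucleolar RNAs and runs antisense to Ube3a. Its probe set 5139098 had an index of 0.34, 0.49, 0.49 and 0.50 in wild type and -0.24, -0.20, -0.04 and -0.29 in Nova2 KO (difference -0.65, SE 0.097, adjusted p = 0.176). In Snhg14 6 of 16 probe sets differed by -0.65 to -0.51 and 5 of them did not overlap, against -0.04 to 0.55 for the other 10.

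**Figure D4:**
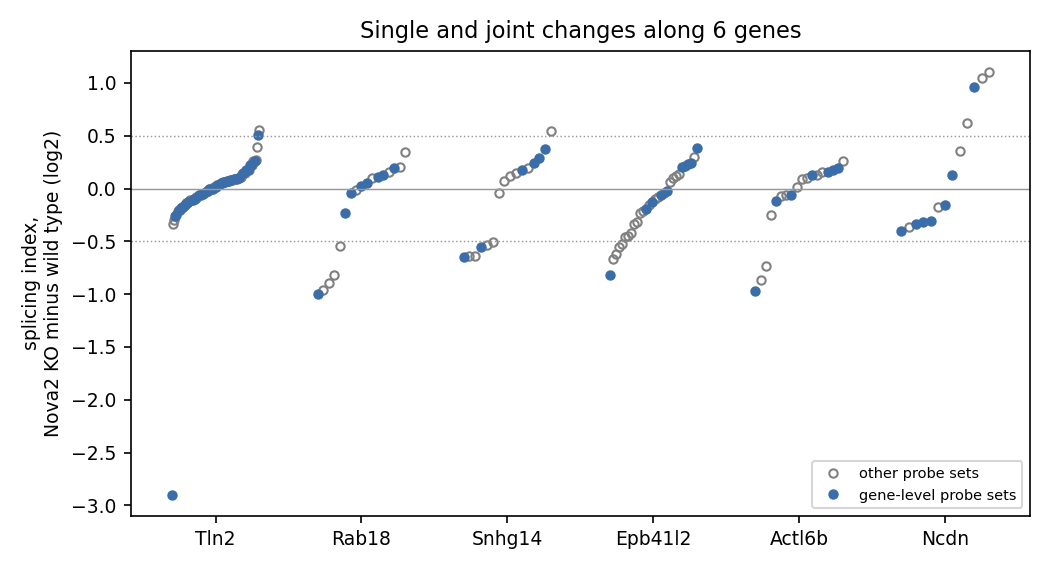
The difference of the splicing index (log2) is plotted for every tested probe set of 6 genes, sorted by value within each gene, with gene-level probe sets filled and dotted lines at -0.5 and 0.5. In Tln2 1 probe set stands apart. In Rab18 5 of 17 and in Snhg14 6 of 16 probe sets lie at -0.5 or less, and in Ncdn 4 of 13 lie at 0.5 or more.

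Ncdn, neurochondrin, a cytoplasmic protein of dendrites, held gene-level probe sets on both sides. Probe set 4790637 had an index of 0.23, 0.25, 0.16 and 0.07 in wild type and 1.12, 1.11, 1.42 and 0.90 in Nova2 KO (difference 0.96, SE 0.12, limma adjusted p = 0.108). Probe set 5476838 of the same gene had a difference of -0.40 (SE 0.095, adjusted p = 0.546). Outside the gene-level set, Ncdn probe set 4642413 rose by 1.10 (SE 0.11, adjusted p = 0.0313) and so passed the test. Another outside it, 4336723, rose by 1.04 (SE 0.14, adjusted p = 0.119). Neo1, a receptor for netrins and repulsive guidance molecules, had an index of 0.11, 0.05, -0.06 and 0.38 in wild type and 0.92, 0.87, 1.12 and 1.03 in Nova2 KO at probe set 4334084 (difference 0.87, SE 0.12, adjusted p = 0.119). The other rising genes named were 4833439L19Rik (0.71), Itsn1 (0.64), an endocytic scaffold, Enah (0.65), an actin regulator, Prmt1 (0.60), an arginine methyltransferase, Agfg1 (0.59), Map6 (0.54), a microtubule stabiliser, Nans (0.44), a sialic acid synthase, and Abi1 (0.42), of the WAVE complex. None of these passed the test.

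Genes with a known Nova-dependent exon held 408 gene-level probe sets in 26 of 34 listed genes. Sptan1 and Aplp2 fell and none rose. Without overlap, 12 lay below wild type (2.94%, against 2.11% of all probe sets tested) and 9 above (2.21%, against 2.03%), and the median difference was 0.00, as over all tested. Of the 408, 5 differed by -0.5 or less, those of Sptan1, Aplp2, Epb41l2 (-0.82), Clstn1 (-0.74) and Map4 (-0.64), and that of Neo1 (0.87) differed by 0.5 or more. The gene value of Map4 rose by 0.67 log2 (SE 0.11, limma adjusted p = 0.0297), so its lower index does not show a loss of signal. Over all probe sets tested, 1.36% differed by -0.5 or less and 1.46% by 0.5 or more. Over all gene-level probe sets the shares were 0.209% and 0.162%. The list was written from published Nova targets, with earlier results of these data known, and is not independent evidence. The list of spectrins, ankyrins and Epb41 relatives, in which talin 2 was also placed, held 241. Those of Sptan1 and Tln2 fell, and 6 lay below and 6 above without overlap (2.49% each). This list too was written with earlier results of these data known. The amyloid family and its processing enzymes held 133, of which that of Aplp2 fell, 2 lay below (1.5%) and 8 above (6.02%). Adhesion and guidance receptors held 498, of which that of Adam11 rose, 13 lay below (2.61%) and 15 above (3.01%). The background of 2.11% below and 2.03% above holds for each of these shares, and falls and rises past the threshold made up 0.00813% and 0.00508% of all probe sets tested.

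No probe set passed the test in the other 13 lists, each given as the count below and above without overlap, against 2.11% below and 2.03% above over all probe sets tested. Microtubule-associated proteins and motors had 21 below (4.28%) and 13 above (2.65%) of 491. Small GTPase regulators had 13 (3.09%) and 10 (2.38%) of 421. Calcium-signalling kinases and phosphatases had 7 (2.34%) and 16 (5.35%) of 299, and clathrin coat and endocytosis genes 8 (3%) and 10 (3.75%) of 267. Presynaptic release genes had 8 (2.96%) and 9 (3.33%) of 270, postsynaptic scaffolds 6 (3.59%) and 2 (1.2%) of 167, and glutamate and GABA receptors 3 (1.6%) and 5 (2.66%) of 188. Voltage-gated and calcium-activated channels had 1 (0.4%) and 7 (2.8%) of 250. Splicing regulators had 9 (3.67%) and 7 (2.86%) of 245. Among housekeeping genes, chaperones and translation factors had 5 and 5 (1.87% each) of 268, the proteasome 3 (1.97%) and 7 (4.61%) of 152, the respiratory chain 4 (3.51%) and 2 (1.75%) of 114, and ribosomal proteins 0 and 1 (1.72%) of 58. Several genes stand in more than 1 list. The cell type marker lists held 0 to 28 gene-level probe sets each and none past the threshold.

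How the gene-level probe sets compare with other probe sets of the same genes was read by size. Of 19358 probe sets dimmer than their gene by more than the window, 26 differed by -1 log2 or less (0.134%) and 62 by 1 or more (0.32%), and the test called 5 falls and 9 rises. Of 18582 brighter ones, 3 differed by -1 or less (0.0161%) and 1 by 1 or more (0.00538%), with 3 falls and no rise. The median SE was 0.162 log2 for the dimmer, 0.115 for the brighter and 0.113 for the gene-level probe sets. The difference between these classes was not tested. By gene level in wild type, Tln2 and Adam11 lay between 9 and 10 log2, where 16292 gene-level probe sets lay, and Sptan1 and Aplp2 between 11 and 12, where 2044 lay.

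By signal alone, with no division by the gene, 15 gene-level probe sets in 8 genes fell (0.0591%, against 0.0224% of all tested), and 1, that of Adam11, rose (0.00394%, against 0.0102%). Genes named from this test only were chosen after their values were seen. Of the 15, 3 were those of Tln2, Sptan1 and Aplp2, 1 was that of Dnajb5, and 11 belonged to 4 genes whose gene value fell. Itpr1, the IP3 receptor through which the endoplasmic reticulum releases calcium, held 7 of the 11. Its gene value was 9.22, 9.41, 9.41 and 8.97 log2 in wild type and 8.19, 8.41, 8.21 and 7.90 in Nova2 KO, a fall of 1.08 (SE 0.13, limma adjusted p = 0.0137). All 33 gene-level probe sets of Itpr1 had lower mean signal, by -1.48 to -0.76 log2, while their index ran from -0.40 to 0.32 with 0 calls. By signal 32 of the 33 lay below wild type without overlap, as did 2.32% of all probe sets tested. The gene value is a median that includes these probe sets, so their joint fall and that of the gene are 1 result. Lmtk3, a membrane kinase, held 2 of the 11 (gene value -1.04, SE 0.14, adjusted p = 0.0157). Slc4a10, a sodium-driven bicarbonate transporter, held 1 (-0.83, SE 0.10, adjusted p = 0.0137), and Rasgrf1, a Ras exchange factor, held 1 (-0.66, SE 0.11, adjusted p = 0.0423). In these 4 genes the gene value fell, which the index takes out, and 0 of their gene-level probe sets were called by index. In Lmtk3 the fall was uneven. Its 7 gene-level probe sets differed by -1.54 to -0.47 by signal, 5 of them without overlap (2.32% of all tested), and by -0.50 to 0.57 by index. Without wild type 1 or Nova2 KO 3, 0 falls by signal were called, and without wild type 4 there were 8; without any other single array there was 1.

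**Figure D5:**
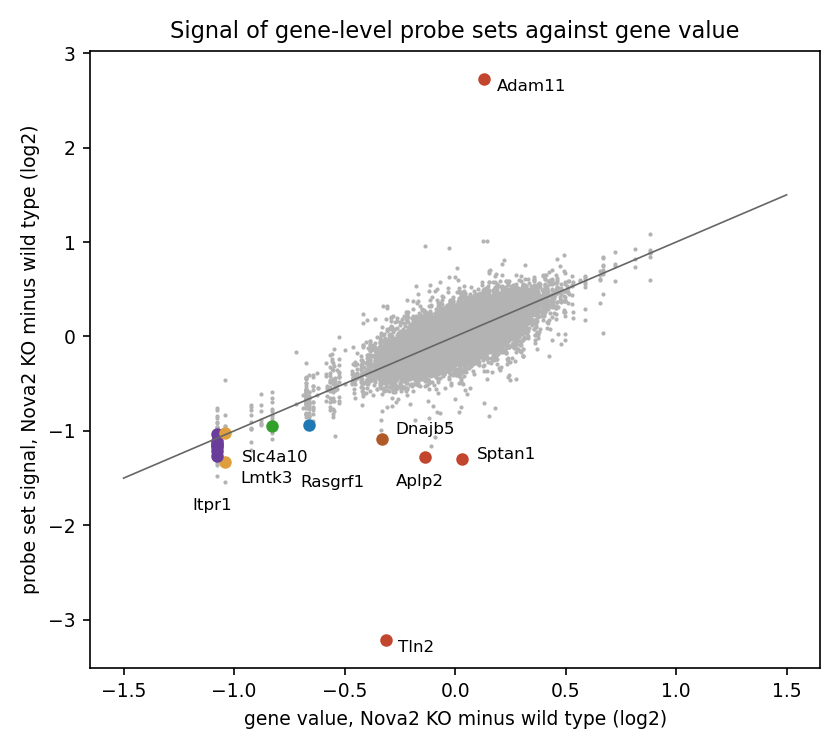
Each point is 1 gene-level probe set, with the difference of its gene value on the horizontal axis and of its own signal on the vertical axis (Nova2 KO minus wild type, log2), and the line marks equal differences. Coloured points passed the threshold by signal. Itpr1, Lmtk3, Slc4a10 and Rasgrf1 lie near the line at gene values of -1.08 to -0.66, while Tln2, Sptan1 and Aplp2 lie below it and Adam11 above.

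Of the 3442 genes that held gene-level probe sets, 12 fell and 4 rose by gene value, where 0.136% and 0.0764% of all 11783 genes tested did. Beside Itpr1, Lmtk3, Slc4a10 and Rasgrf1, those that fell were Slc4a3 (-0.92), Dzip1 (-0.88), Lynx1 (-0.69), Dlg3 (-0.64), Tppp (-0.62), Hpcal4 (-0.62), Tmcc2 (-0.56) and Srr (-0.55). Those that rose were Dcx (0.82), a microtubule-associated protein of immature neurons, Map4 (0.67), Sla (0.66) and Sfrs10 (0.59), the splicing factor now called Tra2b. The index of none of their gene-level probe sets passed the test. Without wild type 1, 2 or 3 or Nova2 KO 1 or 3, 0 genes fell past the threshold. Fewer cells of a type and less RNA per cell cannot be told apart in this bulk tissue.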

How the data were processed

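The deposited values were log2 signals of 391597 probe sets on 8 arrays, made by the authors with PLIER, which fits 1 signal to all probes of a probe set, per the submitters' processing notes. Its version, the normalization and the genome build are not given in the sources used here. On each array the lowest value was 4 log2, which compresses differences of dim probe sets, and the values were used as deposited. The platform annotation named 1 gene for 228454 probe sets, several for 3443 and none for 159700, and those of the last 2 kinds were not used. Of 13017 symbols, 10783 were current in RefSeq GRCm38.p6, 2203 were updated by synonym and 31 were kept. Exon positions and sequences of probe sets were not analysed here.

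Tested were the 196824 probe sets of genes with 5 or more with a mean signal over 8 arrays above the 25th percentile (5.86 log2). The splicing index, the signal and the gene value were each compared between Nova2 KO and wild type by a two-sided test, with lmFit and eBayes of limma 3.58.1 in R 4.3.3, and p-values were adjusted by Benjamini-Hochberg over all features tested, at 0.05. For 170 gene-level probe sets, each the gene's median on every array, the index had no variance. Figures used matplotlib 3.10.9 under Python 3.11.15. The scripts were tested on simulated data.

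Named were all gene-level probe sets past the threshold by index, then falling ones by rising p to 40 in all and rising ones to 12, 1 per gene, where neither index nor signal overlapped between groups; up to 3 from each of 17 role lists and 10 marker lists; Nova1 and Nova2; and those nearest the limits of the rule. Of the probe sets so named, the text describes a part. The gene-level probe sets and the lists were chosen with earlier results of these data known. Alternatives changed the gene value, the filter, the scaling, the offset, the window, the gene level, the prior, a block and the arrays.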

Additional observations from a re-analysis of the deposited data

Results flagged for a closer look

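Among 230 groups of 4 arrays (115 named probe sets in each genotype), 14 had 1 array whose index lay apart from the other 3, with a gap past Dixon's critical share of the group's range; chance gives about 1 in 20 groups. In wild type these were Snhg14 5139098 on array 1 (0.343, others 0.492 to 0.4999), Prmt1 5215190 on array 1 (0.644, others 0.304 to 0.341) and Epn2 5261878 on array 1 (0.633, others 0.367 to 0.382). On wild type 3 they were Rps15 4355164 (0.789, others 0.343 to 0.409) and Rps15 5531751 (-0.789, others -0.409 to -0.343), which mirror each other. On wild type 4 they were Ncdn 5476838 (0.185, others 0.073 to 0.079), Aldh1l1 4544760 (0.088, others 0.391 to 0.411) and Lmtk3 5198439 (0.236), which was the gene's median on the other 3 arrays.

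In Nova2 KO they were Syn2 5441399 on array 1 (-0.468, others -0.659 to -0.641), Psmd8 5443458 on array 2 (0.089, others -0.018 to 0) and Dlg1 4819021 on array 4 (-0.561, others -0.699 to -0.681). On Nova2 KO 3 they were Cnp 5105982 (0.420, others -0.052 to 0.007), Cnp 4688649 (-0.337, others -0.007 to 0.052) and Aldh1l1 4607660 (-0.580, others -0.146 to -0.086). None was among the 4 probe sets past the threshold by index.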

How the results depend on the processing

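In all, 21 other settings were run, and the counts by size and by gene value were added after seeing the data. Of 115 named index differences, 108 kept their direction in all of the 19 settings they were computed in (the window of 0.25 log2 and the gene level of 10 change the choice of probe sets, not a difference), and 98 of 168 counts stayed within 1.5 times the main value. With the gene value as a mean, 1 gene-level probe set rose by 1 log2 or more (2 in the main setting). Without a filter, 3 fell by signal. With the filter at the 50th percentile, 2 rose by index, and 44 fell and 7 rose by signal. With array medians set equal, 42 fell and 3 rose by signal, and 6 genes fell and 1 rose by gene value. With quantile normalization 44 fell and 4 rose by signal. With the offset of 16 taken off and 1 added, 3 fell by signal, and 5 genes fell and 0 rose. With a window of 0.25 log2, which leaves out Adam11, 0 rose by index, 0 rose by signal and 1 differed by 1 log2 or more. With a gene level of 10 log2, 0 rose by index, 3 fell and 0 rose by signal, 2 differed by -1 log2 or less and 1 by 1 or more, and 3 genes fell and 1 rose; this leaves out Tln2 and Adam11. With a trended and robust prior, 78 fell and 28 rose by signal, and 7 genes rose. Unless stated, the cause of a change was not tested. Tln2 was not called by index without a filter (adjusted p = 0.0555), with quantile normalization (0.0636) or with the offset changed (0.116), and Dnajb5 (gene value as mean) and Ncdn and Rab18 (stricter filter) were added.

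Without both arrays numbered 4, 0 fell and 0 rose by index, 1 fell by signal, and 6 genes fell and 1 rose. Leaving out 1 array at a time gave 1 to 3 falls and 1 rise by index, 0 to 8 falls and 0 to 1 rises by signal, 4 to 8 index differences of -1 log2 or less and 1 to 5 of 1 or more, and 0 to 7 falling and 0 to 2 rising genes.

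The labels number the arrays of both groups 1 to 4. Index deviations of arrays with the same number correlated at 0.27, 0.21, -0.04 and 0.34, and signal deviations at 0.32, 0.42, -0.03 and 0.53. Arrays of unlike number correlated at -0.38 to 0.22 by index and at -0.53 to 0.34 by signal. The third pair of like number is not above 0 in either, so the numbers were not taken as a pairing. With the replicate number as a block, 0 fell by index (Sptan1 adjusted p = 0.0899, Aplp2 and Tln2 0.140) and 1 rose (Adam11, 0.0107), 1 fell by signal, and 8 genes rose by gene value.

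The limits are 4 arrays per group, a floor at 4 log2 and an index that moves with the gene's median. Which exon each probe set reads was not analysed here.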
